A study of Mus musculus with 9 samples.

Results

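Epcam, the claudins Cldn1, Cldn3, Cldn4 and Cldn7, Ocln, Tjp1, Spint1, Spint2 and Elf3 are genes of epithelial adhesion and tight junctions. Of these 10 genes, 7 had a probe set annotated to that single symbol in the table held, out of 14440 genes. They were measured by 13 of the table's 30508 probe sets. Tjp1, Spint1 and Elf3 were not analysed here. All 7 symbols matched a RefSeq gene. The arrays held 5 tumours and 4 samples of normal skeletal muscle, with 1 array per sample. The tumours, labelled CC23, CC17-A, CC17-B, SSM4 and SSM5, came from mice labelled MYF-5 CRE/SSM2, and the labels call them SYT-SSX tumours. The fusion protein SYT-SSX defines synovial sarcoma. MYF-5 CRE names a Cre recombinase under Myf5, a factor that acts early in the muscle lineage, and the labels do not spell out SSM2. The muscles were titled wild type and came from the hind limb (labelled Hind limb and Hind limb 2), the forelimb and the intercostal muscle, so genotype and tissue cannot be told apart in any comparison. The labels give no age or strain, and do not say whether CC17-A and CC17-B came from the same animal or whether other arrays came from separate animals, so p-values measure the spread between these samples.

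Tight junctions seal the space between neighbouring epithelial cells. Claudins form the sealing strands, occludin (Ocln) lies within them, and zonula occludens proteins such as Tjp1 tie them to actin. Epcam is an epithelial cell surface protein that binds claudins, and Spint1 and Spint2 are Kunitz-type inhibitors of membrane serine proteases such as matriptase. Elf3 is an ETS transcription factor of epithelia. Human synovial sarcoma is a soft tissue tumour that can form glands of epithelial cells, and Epcam and claudins are among the markers of that component.

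The promoters are shown because CAGGTG, the E-box bound by the SNAIL and ZEB repressors of epithelial genes, recurs in them. RefSeq promoter windows of build GRCm38.p6 were found for all 7 genes, 9 windows in all. Each was read from 250 bases before its start of transcription up to that start. CAGGTG, or CACCTG on the other strand, was in 5 of the 9 windows (55.6%), belonging to 5 of the 7 genes (Epcam, Cldn4, Cldn7, Ocln and Spint2), and in 17.2% of all 32851 windows of that length. The 2 windows of Ocln overlap. For Cldn7, Ocln and Spint2 the matches lie inside the span RefSeq gives the gene, before an inner start. Cldn1 and Cldn3 had no such match. The grainyhead-like motif AACCGGTT was in 0 of the 9 windows and in 0.116% of all windows. The ETS core GGAA, or TTCC, was in 7 of the 9 windows, belonging to 5 of the 7 genes, and in 93.4% of all windows. Each match is a description of the letters and not a bound site.

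The windows of Epcam (chr17:87635729-87635978, plus strand), Cldn4 (chr5:134946935-134947184, minus strand) and Cldn3 (chr5:134985964-134986213, plus strand) are printed 5′ to 3′, with the E-box in capitals. Epcam carries it 187 and 19 bases before the start, Cldn4 once at 14 bases, and Cldn3 nowhere, as the contrast. For Spint2, the stretch of 30 bases from 77 to 48 bases before the start of its window (chr7:29282025-29282054, minus strand) holds 2 of its 3 matches. That stretch lies inside the RefSeq span of Spint2, which runs from 29256330 to 29282059.
Epcam: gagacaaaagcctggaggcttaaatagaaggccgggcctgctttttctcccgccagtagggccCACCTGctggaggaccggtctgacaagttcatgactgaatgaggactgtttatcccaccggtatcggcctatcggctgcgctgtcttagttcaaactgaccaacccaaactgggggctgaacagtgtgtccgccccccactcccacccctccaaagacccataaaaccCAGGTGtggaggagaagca
Cldn4: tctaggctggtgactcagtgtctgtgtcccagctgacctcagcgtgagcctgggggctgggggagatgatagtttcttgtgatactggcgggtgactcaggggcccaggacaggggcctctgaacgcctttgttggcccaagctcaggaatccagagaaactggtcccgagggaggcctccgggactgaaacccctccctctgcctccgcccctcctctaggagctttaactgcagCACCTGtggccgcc
Cldn3: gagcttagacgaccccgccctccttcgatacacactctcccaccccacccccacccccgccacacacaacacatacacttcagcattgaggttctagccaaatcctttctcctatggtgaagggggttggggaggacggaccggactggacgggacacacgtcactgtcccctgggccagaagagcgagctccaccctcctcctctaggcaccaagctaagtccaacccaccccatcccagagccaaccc
Spint2: tgcCAGGTGcaggccgcagagcCAGGTGcg

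Levels are given as scaled intensity, the deposited MAS5 signal after scaling of each array, and an array's floor is the 40th percentile of its values, 96.5 to 137 over the 9 arrays. Values below the floor carry little signal over background. Limma was run on genes at or above the floor on 4 or more arrays, with 0.05 as the threshold of the adjusted p (Benjamini-Hochberg, 10650 genes) for a call. A gene could pass this filter through the tumours alone, as Epcam, Dsp, St14, Mst1r, Foxa1 and Tfap2c did. Its call is then not independent of the filter. Log2 fold changes are on the log2(scaled intensity + 16) scale, which understates the change of dim genes. Of all genes tested, 30.1% were called higher in tumour and 17.9% lower, and this balance moved with the scaling. Higher calls made up 62.6% of all calls as reported, 55.4% on the values as deposited, 49.4% with arrays centred on their median, 55.0% after quantile normalization and 85.3% when ribosomal protein and proteasome genes set the scale (housekeeping scaling). In the same order, the median tested gene lay at 0.23, 0.10, −0.01, 0.09 and 0.84 on the log2 scale, against which the fold changes below can be read. Of 11 skeletal muscle genes 10 were lower in tumour. Summed over all 11, the level was 0.100% of the muscle mean in SSM5, 0.815% in CC17-A, 5.73% in CC17-B, 16.3% in CC23 and 20.5% in SSM4.

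Of the 7 genes, 6 passed the filter on dim values, and Cldn4 did not. Epcam and Spint2 were higher in tumour, 0 genes were lower, and Cldn1, Cldn3, Cldn7 and Ocln were not called. The share called higher, 2 of 6 (33.3%), is near the 30.1% of all genes. The median log2 fold change of the 6 genes was 1.60, against 0.23 for all genes tested, and 5 of the 6 were above 0. Epcam, Cldn3 and Cldn7 each had their highest level in CC17-A, at more than 3 times the next tumour, as the plot of the 7 genes by array shows.

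**Figure D1:**
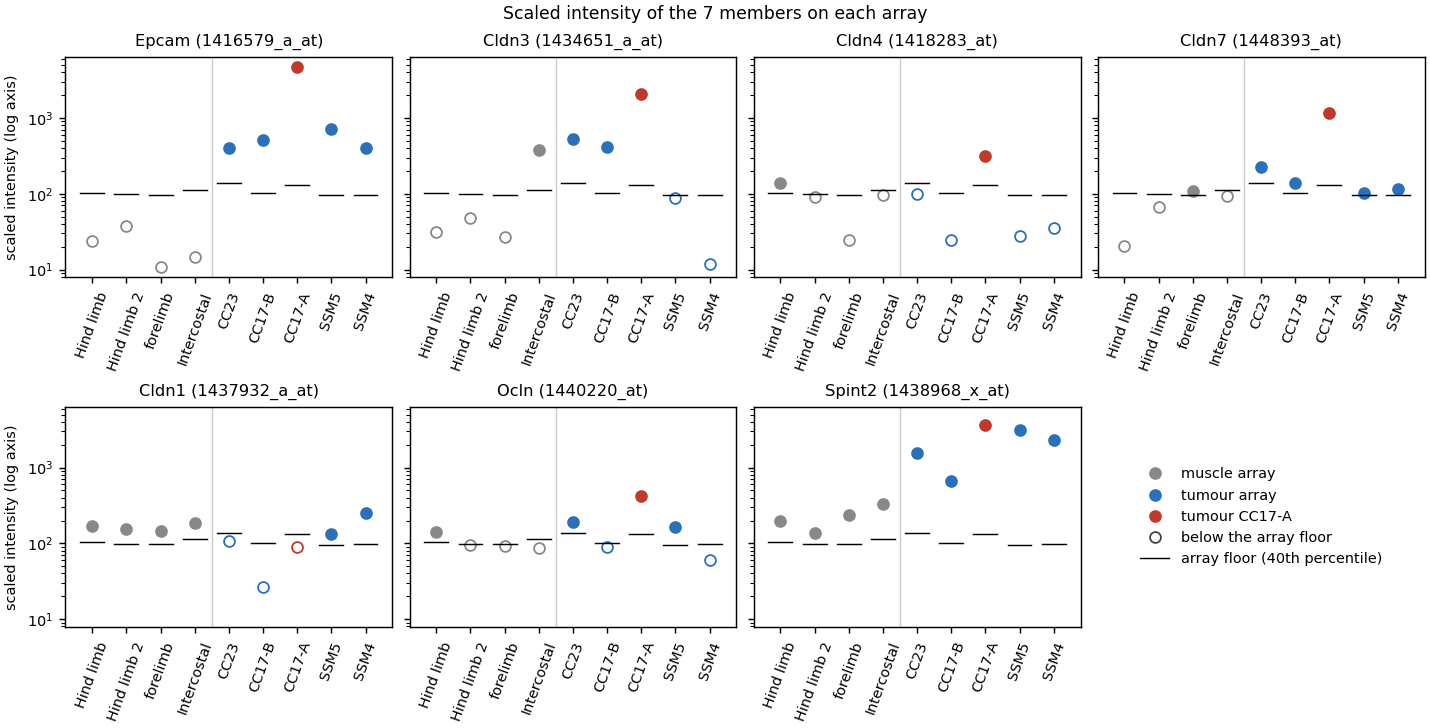
Scaled intensity (log axis) of the representing probe set of each of the 7 genes on the 4 muscle and 5 tumour arrays, with each array's floor as a short line and values below it as open circles; levels of different genes are not comparable. Epcam and Spint2 lie higher on all 5 tumours than on all 4 muscles, and CC17-A is the highest tumour for 6 of the 7 genes, Cldn1 being the other one.

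Epcam, the adhesion molecule (1416579_a_at), stood at 397 in CC23, 508 in CC17-B, 4697 in CC17-A, 725 in SSM5 and 406 in SSM4. The muscles stood at 23.9 (Hind limb), 37.8 (Hind limb 2), 10.7 (forelimb) and 14.6 (Intercostal). All 5 tumours were above their floor and all 4 muscles below theirs, so the groups did not overlap, as was so for 25.2% of all tested genes in this direction. Tumours averaged 1346 ± 1877 (SD, n = 5), and muscles 21.7 ± 12.1 (SD, n = 4), at least 6.70-fold higher when each muscle is set to its floor. CC17-A carried the tumour mean, which was 509 ± 153 (SD, n = 4) without it. By the same log2 measure, the tumours without CC17-A were at least 4.30-fold higher than muscle. Epcam passed the filter through the tumours alone. Limma gave 4.45 on the log2 scale (SE 0.65, adjusted p = 0.00024), with adjusted p = 0.00028 when no filter on dim genes was used. Without CC17-A it gave 3.81 (adjusted p = 6.6e-05). Among the other 4 tumours, Epcam spanned less than 2-fold, and with 1 array each their order has no replicate check.

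Claudin 3, a sealing claudin of simple epithelia, was measured by 4 probe sets. The representing one, 1434651_a_at, read 532 in CC23, 409 in CC17-B, 2074 in CC17-A, 88.0 in SSM5 and 11.8 in SSM4. In muscle it read 31.1 (Hind limb), 47.2 (Hind limb 2), 27.2 (forelimb) and 376 (Intercostal). The 3 tumours labelled CC lay above every muscle, while SSM5 and SSM4 lay below their floor. Limma did not call it, at 1.67 on the log2 scale (SE 1.11, adjusted p = 0.238). Without SSM4 it was called by limma, at 2.49 (adjusted p = 0.0429), and without the intercostal muscle, CC23, CC17-B or CC17-A it no longer passed the filter. Nor did it give a value with probe sets averaged or with only those ending in a plain _at. Over the 18 alternatives that gave one, the adjusted p ran from 0.0429 to 0.411.

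CC17-A was the highest tumour on the other 3 Cldn3 probe sets as well. Probe set 1451701_x_at read 244 in CC23, 233 in CC17-B, 1941 in CC17-A, 113 in SSM5 and 6.04 in SSM4, with muscles from 12.2 to 19.1. Probe set 1460569_x_at read 386, 216, 2035, 44.3 and 49.0 in the same order of tumours, with muscles from 13.3 to 31.3. On 1426332_a_at CC17-A, at 669, was the only array above its floor. The intercostal value of 376 was thus not shared by the other 3 probe sets, which read 16.1 to 19.1 there. When each probe set was tested on its own, limma called 1451701_x_at, at 2.75 (SE 0.98, adjusted p = 0.0415), against 25.7% of 17433 tested probe sets called higher. This probe set passed the filter through 4 tumours alone, with SSM4 and all 4 muscles below their floor. SSM4 lay below every muscle, so the groups overlapped, and the fold change is bounded at 1.73-fold or more. A suffix of _x_at marks probe sets that can bind related sequences.

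Claudin 7, which binds Epcam in epithelial membranes (1448393_at), read 225 in CC23, 137 in CC17-B, 1168 in CC17-A, 102 in SSM5 and 114 in SSM4. The muscles read 20.6 (Hind limb), 66.1 (Hind limb 2), 110 (forelimb) and 92.2 (Intercostal). All tumours were above their floor, but SSM5 lay below the forelimb muscle, so the groups overlapped. The tumour mean of 349 ± 461 (SD, n = 5) was 144 ± 55.9 (SD, n = 4) without CC17-A, and the muscle mean was 72.2 ± 38.9 (SD, n = 4). The log2 fold change of 1.53 did not pass limma's threshold (SE 0.66, adjusted p = 0.0768). It was called under housekeeping scaling, at 2.06 (adjusted p = 0.0208), where the median of all genes is also raised. Over the alternatives the adjusted p ran from 0.0208 to 0.207.

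Claudin 4, another epithelial claudin (1418283_at), reached the floor on 2 arrays and was not tested. It read 314 in CC17-A and 139 in the Hind limb muscle, both above their floor, and 24.2 to 100.1 on the other 7 arrays, all below. The tumour mean was 46.8 ± 35.8 (SD, n = 4) without CC17-A and the muscle mean 87.7 ± 47.3 (SD, n = 4). At this signal a difference between the groups was not detectable.

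Claudin 1, a barrier claudin of skin and of the nerve sheath, had a lower mean in tumour than in muscle on 1437932_a_at. It read 106 in CC23, 26.4 in CC17-B, 90.4 in CC17-A, 134 in SSM5 and 254 in SSM4, the first 3 below their floor. The muscles read 167 (Hind limb), 156 (Hind limb 2), 145 (forelimb) and 187 (Intercostal), all above. SSM4 was the only tumour above the muscles, and the groups overlapped. By limma it was not called, at −0.61 (SE 0.46, adjusted p = 0.302). The second probe set, 1450014_at, was below the floor on 8 of 9 arrays, and on it CC17-A, at 86.6, was the highest tumour. Schwann cell and myelin markers summed to 4214 to 11478 in tumours and 4849 to 7182 in muscle. The listed perineurial marker, Slc2a1, was not among the genes analysed, so the sum does not measure perineurial cells. The 2 highest sums were in SSM5 and SSM4, the tumours with the highest Cldn1. Pmp22, also among the junction membrane proteins, made up 8338 of 11478 in SSM5 and 7731 of 9702 in SSM4. It was not called, and is named after its values were seen. Of 6 of these markers tested 1 was higher, 2 were lower and 3 were not called. Over the alternatives 1 to 3 were higher and 0 to 2 lower, with fewer than 2 lower in 15 of 24, and their part in the Cldn1 values was not tested.

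Occludin gave different readings on its 2 probe sets. The representing one, 1440220_at, read 192 in CC23, 88.2 in CC17-B, 418 in CC17-A, 165 in SSM5 and 59.7 in SSM4, against 142 (Hind limb), 94.3 (Hind limb 2), 91.4 (forelimb) and 86.1 (Intercostal). The groups overlapped, and limma did not call it, at 0.50 (SE 0.47, adjusted p = 0.401). The other, 1448873_at, read 61.4, 72.6, 483, 136 and 154 in the same order of tumours, against 28.5, 4.25, 4.03 and 10.7 in the same order of muscles. There every tumour lay above every muscle, as for 21.7% of tested probe sets, but only CC17-A, SSM5 and SSM4 were above their floor, so it was not tested as filtered. With no filter, an alternative chosen after the values were seen, limma called it, at 2.55 (SE 0.54, adjusted p = 0.00367), while 17.3% of 25581 probe sets were called higher. The fold change against muscles below the floor is bounded at 1.30-fold or more. In that same fit 6 of the 13 probe sets were called higher, beside that 17.3%. They belong to 4 of the 7 genes, Epcam, Cldn3, Ocln and Spint2, against 2 by the representing probe set. Any 1 probe set of a gene sufficed for the count of 4, and the share of all genes counted this way was not computed.

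**Figure D2:**
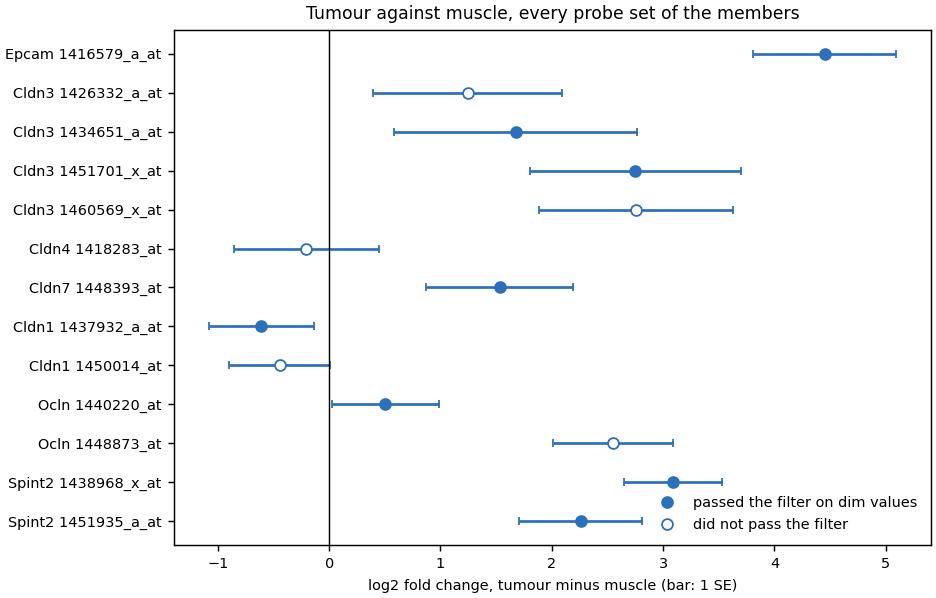
Log2 fold change, tumour minus muscle, with its SE, for the 13 probe sets of the 7 genes, from limma over all probe sets with no filter; filled points passed the filter on dim values. The 2 probe sets of Ocln stand at 0.50 and 2.55, and the 4 of Cldn3 between 1.24 and 2.76.

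Spint2, the Kunitz-type protease inhibitor, was above the floor on all 9 arrays. On 1438968_x_at it read 1537 in CC23, 669 in CC17-B, 3672 in CC17-A, 3094 in SSM5 and 2325 in SSM4, against 196 (Hind limb), 137 (Hind limb 2), 236 (forelimb) and 328 (Intercostal). Every tumour exceeded every muscle, and the means were 2259 ± 1199 (SD, n = 5) and 224 ± 80.3 (SD, n = 4). Limma called it 8.49-fold higher, or 3.09 on the log2 scale (SE 0.45, adjusted p = 0.00025), and at 2.86 (adjusted p = 0.00076) without CC17-A. Its other probe set, 1451935_a_at, read 472, 429, 2786, 2086 and 1800 in the same order of tumours, with muscles from 141 to 386, and was called too, at 2.26 (SE 0.56, adjusted p = 0.00754 over all probe sets). Unlike Cldn3, Spint2 was high in both tumours labelled SSM. On both probe sets the highest tumour was CC17-A as scaled here, but SSM5 on the values as deposited. With arrays centred on their median, SSM5 was highest on 1438968_x_at and CC17-A on 1451935_a_at.

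CC17-A was the highest tumour on 12 of the 13 probe sets (9 on the values as deposited, 11 with arrays centred on their median or after quantile normalization). The 12 include Cldn1 1450014_at, on which all 5 tumours were below their floor. By gene, as scaled here, CC17-A was highest on the representing probe set for 6 of the 7 genes, and for 24.8% of all tested genes. Its level over the next tumour was 6.48-fold for Epcam, 5.19-fold for Cldn7, 3.90-fold for Cldn3, 2.18-fold for Ocln and 1.19-fold for Spint2. For Cldn4, which was below the floor in the other 4 tumours, it was at least 2.28-fold. Over the 5 scalings, this ratio ran from 4.76 to 8.90 for Epcam, from 4.54 to 5.90 for Cldn7, from 3.41 to 4.32 for Cldn3, from 1.86 to 2.18 for Ocln and from 0.872 to 1.41 for Spint2. On the log2 scale, a gap of at least 1 was found in 170 of 10650 tested genes (1.60%), 4 of which are Epcam, Cldn3, Cldn7 and Ocln. Ranked by that gap, Epcam was 5th, Cldn7 12th, Cldn3 25th, Ocln 151st and Spint2 1506th of the 10650. CC17-A is 1 array, so the gap has no replicate and no test. In bulk tissue, more cells of a type and more RNA per cell cannot be told apart.

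**Figure D3:**
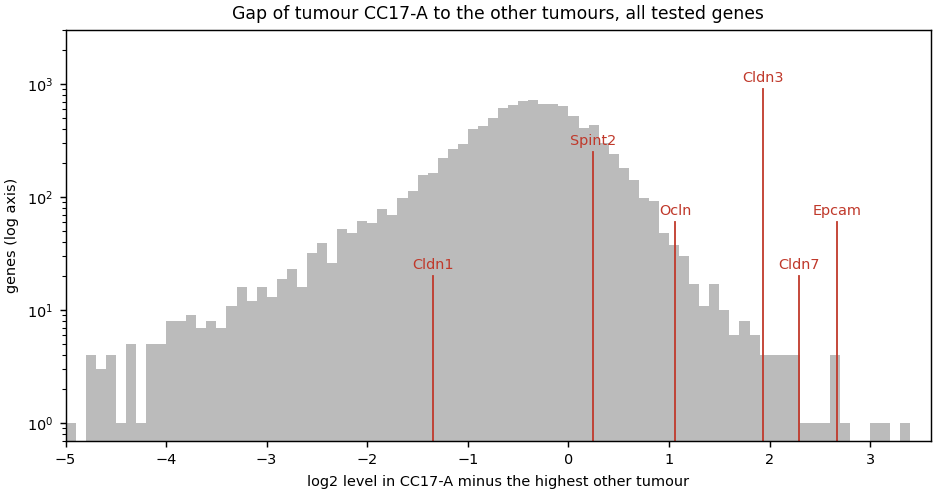
Number of tested genes (log axis) by the log2 level in CC17-A minus that in the highest of the other 4 tumours, with the 6 tested members marked by red lines whose heights carry no meaning. Epcam (2.67), Cldn7 (2.30) and Cldn3 (1.93) lie in the right tail, and Spint2 (0.25) and Cldn1 within the bulk.

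CC17-B, the tumour that shares the CC17 label, did not share these levels. CC17-A exceeded CC17-B by 9.25-fold for Epcam, 8.55-fold for Cldn7, 5.07-fold for Cldn3 and 5.49-fold for Spint2. Cldn4 and Ocln were below the floor in CC17-B, and CC17-A was at least 3.09-fold higher for Cldn4 and at least 4.12-fold higher for Ocln. Across all tested genes, 1168 (11%) were at least 2-fold higher in CC17-A than in CC17-B, with a median absolute log2 difference of 0.44. With both averaged as 1 sample, limma gave Epcam 4.21 on the log2 scale (adjusted p = 0.00013) and Spint2 3.16 (adjusted p = 7.5e-05).

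Of 10 other epithelial genes tested, 4 were higher in tumour and 0 lower (3 to 7 and 0 to 2 over the alternatives), Dsp, Krt18, Cdh1 and Krt8. Among all tested genes 30.1% were higher and 17.9% lower. Cldn6 and Erbb3 are named after their values were seen, and neither was called. Cldn6, a claudin of embryonic epithelia, ranked 4th by the gap, at 891 in CC17-A and 86.0 to 120 in the other tumours. By the same gap, Dsp, a desmosome component, ranked 41st, Krt8, a simple keratin, 101st, Cdh1, the adherens junction cadherin, 221st and Krt18 436th. Among other uncalled genes of this list, named after their values were seen, Jup ranked 348th, Prom1 2149th, Dsg2 2565th, Cd24a 5365th and Pkp3 5913th. Cd24a and Pkp3 were higher in CC23 (33425 and 471) than in CC17-A (25299 and 333). Erbb3, a receptor tyrosine kinase, ranked 16th, at 2868 in CC17-A and 530 to 639 in the other tumours. Of the 8 keratinocyte genes in the table, 1 was at or above the floor in CC17-A, and 5 were below it on every array. Their sum, 430 to 1244 in tumours and 677 to 1048 in muscle, was highest in CC17-A. The gut and airway markers summed to 812 in CC17-A, inside the tumour range of 386 to 1165, with 454.5 to 695 in muscle. The mammary and skin gland markers summed to 672 in CC17-A, inside the tumour range of 507 to 779, with 226 to 511 in muscle, and 1 of 6 was at or above the floor in CC17-A. Of the 5 macrophage markers tested 2 were higher and 0 lower, but the count higher was 1 in 16 of 24 alternatives and ran from 1 to 4. The part of such cells in the CC17-A values was not tested.

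As a class, mesothelial markers were high only in the intercostal muscle among the 9 arrays. Their sum was 180 to 471 in 4 tumours and 4233 in CC17-A, where Calb2, a calcium buffer of mesothelium and neurons, made up 4114 of it. The other 5 mesothelial genes, Msln, Muc16, Upk1b, Upk3b and Wt1, were all below the floor in CC17-A, at 8.59 to 42.5. In muscle the sum was 272 to 384 on 3 arrays and 3223 in the intercostal sample, where those 5 genes were all above the floor. The intercostal sample was also the muscle highest for Spint2 on both probe sets and for Cldn3 on 1434651_a_at, and the part of mesothelial cells in these values and in those of CC17-A was not tested. Without it, limma gave Spint2 a log2 fold change of 3.28 (adjusted p = 0.00051).

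The other tight junction genes were taken from lists of further claudins, membrane proteins, and plaque and polarity proteins. The array table held 44 of them, and 34 passed the filter. Limma called 16 up in tumour (47.1%, beside 30.1% of all tested genes) and 5 down (14.7%, beside 17.9%), leaving 13 uncalled. Those shares hold for the scaling used here, and whether they differ from the shares of all genes was not tested. The median of the 34 genes was 0.72 on the log2 scale against 0.23 over all genes. The scaling moved the plaque and membrane counts, as given below. Of 5 further claudins tested, 0 were higher, 1 was lower and 4 were not called. The one that fell was Cldn5, the claudin of endothelium. Muscles averaged 634 ± 90.5 (SD, n = 4) and tumours 322 ± 78.4 (SD, n = 5), a difference of −0.96 on the log2 scale by limma (adjusted p = 0.00427). Under housekeeping scaling 1 further claudin was higher and 0 were lower, and with arrays centred on their median 2 were lower. Endothelial markers moved with Cldn5: 6 of 11 were lower and 0 higher (0 lower under housekeeping scaling, and 5 to 9 under the other alternatives), Cldn5 and Esam among them, and the sum was 2888 to 4757 in tumours and 5506 to 7394 in muscle.

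Of 10 junction membrane proteins tested, 6 were higher and 2 lower, or 4 and 3 with arrays centred on their median and 7 and 1 under housekeeping scaling. F11r, the junctional adhesion molecule JAM-A, read 709 in CC23, 821 in CC17-B, 1110 in CC17-A, 930 in SSM5 and 810 in SSM4, against 179 to 427 in muscle. All tumours exceeded all muscles, and the log2 fold change was 1.74. Cxadr, an adhesion receptor also bound by coxsackievirus, read 144 in CC23 and 339 to 831 in the other tumours, with the intercostal muscle at 319 and the other muscles at 25.6 to 66.9. Limma called it, at 2.13 (adjusted p = 0.0148), although the groups overlapped. Tmem47, a junction protein of the claudin superfamily, rose by 1.83 on the log2 scale, and Ildr2, of the angulin family of cell corner proteins, by 1.77. Jam2 and Esam, adhesion molecules found in endothelium, had log2 fold changes of −1.52 and −1.04.

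Of 19 plaque and polarity genes tested, 10 were higher, 2 lower and 7 not called, or 6 and 2 on the values as deposited, with arrays centred on their median and after quantile normalization, and 14 and 1 under housekeeping scaling. Patj, a scaffold of the Crumbs polarity complex, read 694 in CC23, 482 in CC17-B, 944 in CC17-A, 740 in SSM5 and 563 in SSM4, against 59.7 to 192 in muscle, a log2 fold change of 2.72. Prkci, the atypical protein kinase C of the PAR complex, rose by 1.88 and Magi3, a scaffold protein, by 1.88. For these 3 genes no tumour overlapped a muscle, and the tumours spanned less than 2-fold. Ybx3, a nucleic acid binding protein that also locates to junctions, fell, from 43149 ± 10046 (SD, n = 4) across muscles to 11830 ± 3419 (SD, n = 5) across tumours. Tjp3, a paralogue of Tjp1 named after its values were seen, was not called, at 0.11 (SE 0.38).

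**Figure D4:**
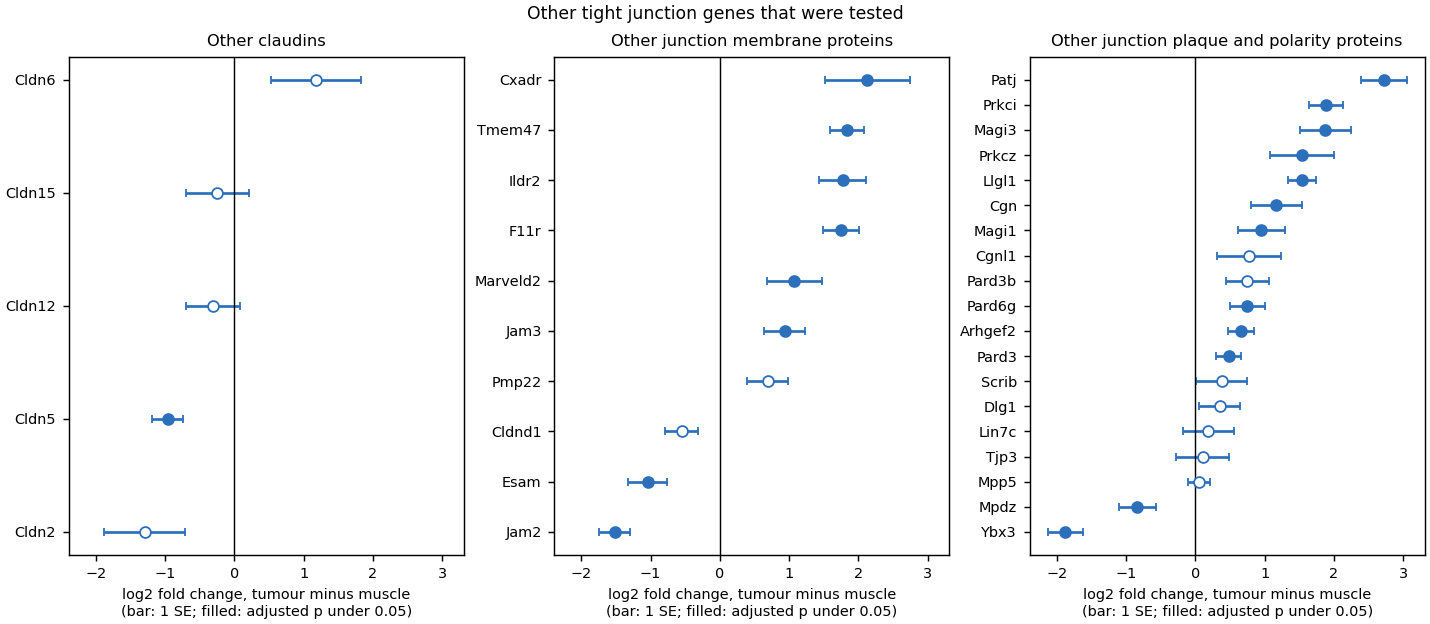
Log2 fold change, tumour minus muscle, with its SE for the 34 other tight junction genes that were tested, by limma over all tested genes; filled points had an adjusted p under 0.05. Filled points lie on both sides of 0, from Patj at 2.72 to Ybx3 at −1.87.

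Of 7 tested genes of the serine proteases that Spint inhibitors act on and of the linked growth factor axis, 2 were higher, 1 lower and 4 not called (1 to 2 higher and 0 to 2 lower over the alternatives). Among all tested genes 30.1% were higher and 17.9% lower. St14, matriptase, read 365 in CC23, 148 in CC17-B, 1106 in CC17-A, 353 in SSM5 and 174 in SSM4, and was below the floor in all 4 muscles. It was at least 2.91-fold higher, and CC17-A was again the highest tumour, ranking 51st by its gap. Mst1r, the receptor of macrophage stimulating protein, was at least 1.55-fold higher, and Tmprss6, a liver membrane protease, had a log2 fold change of −1.05. For both genes the groups overlapped, and for Mst1r CC17-B (105) lay below the intercostal muscle (109).

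Of 7 epithelial transcription and splicing factors tested, 3 were higher and 0 lower, and over the alternatives 2 to 4 were higher and 0 to 1 lower. Foxa1, a pioneer factor of endodermal and mammary epithelium, read 430 in CC23, 156 in CC17-B, 890 in CC17-A, 1693 in SSM5 and 1756 in SSM4, with all muscles below the floor, at least 6.17-fold higher. Its 2 highest tumours were SSM4 and SSM5, which were the lowest for Cldn3 on its representing probe set. Ovol2, which restrains mesenchymal genes, was called narrowly, at 1.16 on the log2 scale (adjusted p = 0.0423 by limma). It was not called in 13 of the 23 alternatives that tested it, among them the values as deposited, median centring and quantile normalization. That includes leaving out Hind limb, Intercostal, Hind limb 2, CC17-B, CC17-A or SSM5 (adjusted p from 0.0525 to 0.110). Tfap2c, an AP-2 factor, was at least 31.8-fold higher. Of 9 genes that bind or process Epcam, 3 were higher, 1 was lower and 5 were not called (2 to 5 higher and 1 lower over the alternatives). Bace2 and Adam10, membrane proteases, rose by 2.14 and 0.70, Cd44, an adhesion receptor, by 1.79, and Tspan8, a tetraspanin, fell by 5.87. Of 9 repressors of junction genes, 3 were higher and 0 lower (3 to 7 and 0 to 1 over the alternatives), Twist1 at 4.21, Snai2 at 2.91 and Tcf3 at 1.43. The counts of these lists stand beside 30.1% higher and 17.9% lower among all tested genes, and were not tested against them. The repressors did not share an order over the tumours. In CC17-A, Snai2 (1168) and Twist1 (1482) were at their lowest tumour level, while Tcf3 (828) was below CC23 (890) alone. Zeb1 (997) and Zeb2 (281), not called and named after their values were seen, were also at their lowest tumour level there. Twist2 (428) and Tcf4 (4554), uncalled and named likewise, were neither highest nor lowest in CC17-A. Snai1 (184) and Foxc2 (211), not called and named after their values were seen, were highest there.

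The 8 tested genes with the highest Pearson correlation with Epcam over the 9 arrays were Ddx58, Paip1, Strn4, Zfp518b, Plxna3, Man1c1, Srm and Sufu, with r from 0.977 to 0.986. Both groups of arrays enter this r, so it holds the difference between tumour and muscle, and CC17-A was the highest array for all 8. By the same measure Spint2 had r = 0.899, Cldn7 0.781, Ocln 0.625, Cldn3 0.583 and Cldn1 −0.426, at ranks 564, 2166, 3569, 3873 and 7878 of 10649. These values are descriptions over arrays that fall into 2 groups.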

How the data were processed

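Total RNA from 5 tumours and 4 skeletal muscles was hybridised to Affymetrix arrays, 1 per sample. The deposited values are probe set intensities on a linear scale. The authors used MAS5, per the submitters' processing notes; its version and target are not given in the sources used here. The 2% trimmed means of the arrays ran from 430.2 to 610.0, so arrays were scaled to a common trimmed mean (factors 0.909 to 1.29). Precision is limited by how many arrays there are. Probe sets with several symbols (496), with none (4424) and controls (7) were left out. Where a gene had several probe sets, the one brightest on average (log2) stood for it. Tumour and muscle were compared by two-sided moderated tests from limma 3.58.1 (lmFit; eBayes, trend on) under R 4.3.3. Benjamini-Hochberg adjustment ran over 10650 genes or 17433 probe sets, and the procedure was tested on simulated data. A gene below the floor on every muscle array was given a bound from the floors. Named genes were the members, up to 4 called genes of each list with the largest change, and the 8 genes most like Epcam. Members and lists were chosen with earlier results of these data known. Alternatives were other scalings, pseudocounts, filters, probe set choices and fits, CC17 tumours averaged, and each array left out.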

Additional observations from a re-analysis of the deposited data

Results flagged for a closer look

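Among 26 groups of values (13 probe sets, each in tumours and in muscles), 1 held an array far from the rest, where chance flags about 1 in 20. For Epcam (1416579_a_at) the gap of tumour CC17-A to the next tumour, SSM5, was 0.76 of the range of the 5 tumours on the log2 scale, above the critical value of 0.71. The same ratio was 0.782 after quantile normalization and 0.742 when ribosomal protein and proteasome genes set the scale, but 0.689 with arrays centred on their median and 0.626 on the values as deposited, both under the critical value.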

How the results depend on the processing

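No paired analysis was possible because the labels give no numbers that pair tumours with muscles. Under 23 alternatives and 1 more chosen after the values were seen, no tested member changed sign where it was tested. Epcam was called by limma wherever it was tested, with log2 fold changes from 3.33 to 5.24 (adjusted p from 6.6e-05 to 0.00118). So was Spint2, by its representing probe set or the mean of its probe sets, from 2.67 to 3.69 (adjusted p from 6.2e-05 to 0.00133). Its other probe set, 1451935_a_at, was called at 2.26 with every probe set tested (adjusted p = 0.00754, or 0.00868 with no filter). The count of members called higher was 2, and 2 to 3 when each array was left out. Cldn7 was called as well under housekeeping scaling, and Cldn3, through 1451701_x_at, with every probe set tested. The count was 0 with only probe sets ending in a plain _at, which leaves out every probe set of Epcam and Spint2. It was 4 with every probe set tested and no filter on dim probe sets, the alternative added, where any 1 probe set of a gene sufficed. The count of members called lower was 0 under every alternative. Of all genes, 3202 were higher and 1910 lower. These were 5560 and 955 when ribosomal protein and proteasome genes set the scale, and 2885 probe sets were lower with every probe set tested. Values near the floor limit what Cldn1, Cldn4 and Ocln can show.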
